A study of Mus musculus with 6 samples.

Results

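The integrins and leukocyte adhesion molecules described here are the 10 probes of an immunology panel whose RefSeq transcript identifiers belong to the mouse genes Itgal, Itgax, Itga4, Itga6, Itgb1, Itgb2, Icam1, Icam2, Selplg and Pecam1, out of 561 gene probes in all. They were counted in splenocytes, the suspended cells of the spleen, from female mice of the hybrid strain NZB/WF1, which spontaneously develops a lupus-like autoimmune disease. Mice were 6 to 7 weeks old when they received an implant with 17-beta estradiol (E2, the natural estrogen), an implant with 17alpha-ethinyl estradiol (EE, a synthetic estrogen that carries an added ethynyl group) or an empty placebo implant, and cells were collected 9 weeks later. Each group held 2 samples, numbered 1 and 2 for E2, 11 and 14 for EE and 22 and 26 for placebo. The strain and sex were shared by all groups, the labels do not tie a sample to a mouse, and the sources used here do not state implant doses. The p-values therefore measure the spread between these samples, which may be technical. That spread was estimated partly from all tested genes together, not from a gene's own samples alone.

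Integrins are cell surface receptors made of an alpha and a beta subunit, and a subunit reaches the surface only as part of such a pair. On leukocytes the beta 2 subunit, encoded by Itgb2, pairs with the alpha L subunit (Itgal) to form LFA-1, with alpha M (Itgam) to form Mac-1 and with alpha X (Itgax) to form CD11c/CD18. The beta 1 subunit (Itgb1) pairs with alpha 4 (Itga4) and alpha 6 (Itga6), among others. LFA-1 binds the immunoglobulin-like ligands ICAM-1 (Icam1) and ICAM-2 (Icam2), while PSGL-1 (Selplg) is the ligand by which leukocytes roll on selectins and PECAM-1 (Pecam1) is a self-binding molecule of endothelium, platelets and leukocytes. In the spleen, integrins of both families help to retain lymphocytes and to hold their contacts with other cells.

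The values are barcode counts per probe, treated as scaled per sample and rounded before deposit. Gene totals ran from 646299 to 863942 per sample, and the 12 reference genes with a name had a geometric mean between 1117.0 and 1184.8. Single reference genes moved around that level: against placebo, 2 of the 12 rose and 1 fell under E2 (log2 -0.58 to 1.02 over the 12), and 3 rose and 2 fell under EE (-0.50 to 0.74). The level that negative control probes reach, taken as their mean plus 2 SD, lay between 10.15 and 13.74. None of the 15 T cell and 10 B cell markers measured was at or below it in all samples. Probes differ in efficiency, so the level of one gene is not set against that of another.

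Of the 10 adhesion genes, 9 had a mean of at least 20 and were tested. On the deposited scale, on which the geometric mean of the reference genes is nearly level, 8 of these 9 fell under E2 and 7 of 9 under EE, and 0 rose under either estrogen. Most of the panel moved the same way: 59.5% of the 457 tested genes were lower and 12.5% higher in E2 than in placebo, and 63.9% were lower and 15.5% higher in EE. The median log2 fold change of the 9 adhesion genes was -0.51 for E2, beside -0.56 for all tested genes, and -0.697 for EE, beside -0.695, so that as a group they moved about as far as the panel. The members differed among themselves. Pecam1, Icam2 and Itgal lay lowest, Itga6 next, Itga4, Itgax and Itgb2 near the panel median, Icam1 above it under EE, and Itgb1, which did not pass the test, well above that median. Both comparisons share the placebo samples, so their values are given side by side and are not independent.

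**Figure D1:**
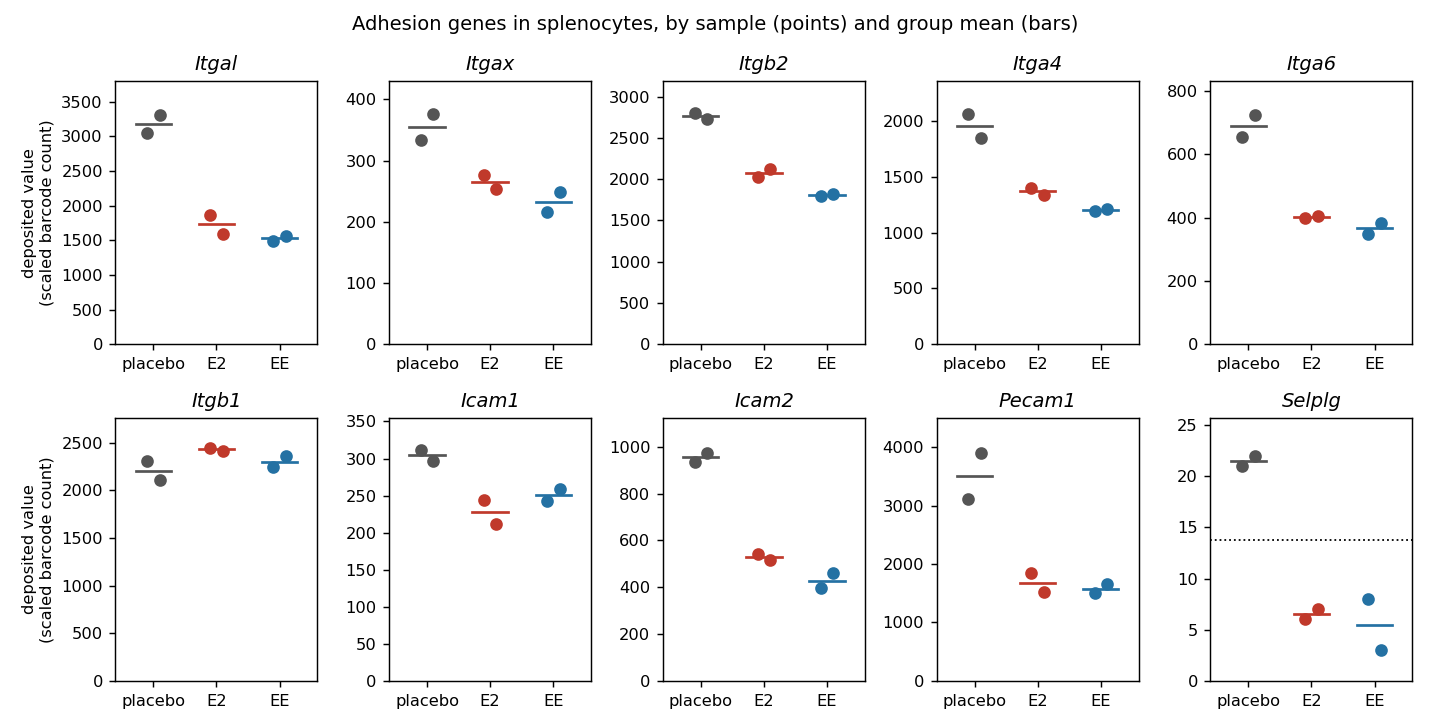
Deposited value (scaled barcode count, linear axis from 0) of each adhesion gene in every sample. Points are the 2 samples of a group, bars are group means, and the dotted line in the Selplg panel is the highest background level, 13.74. Placebo samples lie above all estrogen samples for every gene shown except Itgb1.

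The beta 2 integrin members Itgal, Itgb2 and Itgax were lower under both estrogens on the deposited scale. Itgal, the alpha chain of LFA-1, read 3048 and 3302 in placebo, 1868 and 1590 in E2 and 1495 and 1569 in EE. All 4 estrogen samples lay below both placebo samples, and E2 and EE did not overlap. Itgal had a log2 fold change of -0.88 ± 0.15 (SE, n = 2 against 2) for E2, with a limma adjusted p of 9.10e-04, and -1.05 ± 0.15 for EE, with an adjusted p of 3.01e-04. With samples scaled on the panel's median gene in place of the deposited scaling, Itgal was still lower, by a log2 change of -0.32 for E2 (adjusted p = 0.0363) and -0.37 for EE (adjusted p = 0.0201).

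Itgb2, the beta chain that all members of this integrin family share, read 2798 and 2734 in placebo, 2025 and 2118 in E2 and 1799 and 1815 in EE. The 3 groups were separate, with placebo highest and EE lowest, and the replicates of a group were close. Itgb2 changed by a log2 value of -0.42 ± 0.14 for E2 (adjusted p = 0.0213) and -0.61 ± 0.14 for EE (adjusted p = 0.00262). Against the median gene the direction turned, to 0.15 for E2 and 0.07 for EE, neither past the threshold (adjusted p = 0.332 and 0.616). Itgb2 was thus lower on the deposited scale, on reference genes and on positive controls (-0.51 and -0.94) but not against the panel's median gene.

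Itgax, which encodes CD11c, the surface marker by which mouse dendritic cells are usually identified, read 334 and 376 in placebo, 276 and 253 in E2 and 216 and 248 in EE. Estrogen samples were again below both placebo samples, and EE lay below E2. The log2 fold change was -0.42 ± 0.15 for E2 (adjusted p = 0.031) and -0.61 ± 0.15 for EE (adjusted p = 0.00488), and it turned to 0.14 and 0.07 on the median gene (adjusted p = 0.301 and 0.579). Markers of dendritic cells (Batf3, Xcr1 and Ccr7 measured, none at or below the background in all samples) held 1 gene that fell and 2 that did not pass the test under each estrogen, and summed to 1193 to 1471 in E2, 1001 to 1183 in EE and 2854 to 3028 in placebo. The median of the 3 was -0.10 under E2 and 0.001 under EE, and on the median gene 1 of them was called higher under EE. The lower sums rest on the 1 gene that fell, by a log2 change of -1.21 under E2 and -1.52 under EE. Their part in the level of Itgax was not tested.

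Itga4 and Itga6, the members whose alpha chains pair with beta 1, fell, while beta 1 did not pass the test. Itga4, the alpha chain of the VCAM-1 and fibronectin receptor VLA-4, read 2061 and 1843 in placebo, 1400 and 1338 in E2 and 1189 and 1214 in EE. Placebo was highest and EE lowest, without overlap. Its log2 fold change was -0.51 ± 0.14 for E2 (adjusted p = 0.01) and -0.70 ± 0.14 for EE (adjusted p = 0.00163). Against the median gene it was 0.05 for E2 and -0.01 for EE, neither past the threshold (adjusted p = 0.704 and 0.92).

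Itga6, the alpha chain of laminin receptors, read 654 and 724 in placebo, 398 and 406 in E2 and 349 and 384 in EE. Every estrogen sample stood below both placebo samples, and the EE samples stood below those of E2. The log2 fold change was -0.77 ± 0.14 for E2 (adjusted p = 0.00145) and -0.91 ± 0.14 for EE (adjusted p = 4.32e-04), and -0.21 and -0.23 on the median gene (adjusted p = 0.159 and 0.13).

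Itgb1, the most widely shared integrin beta chain, read 2310 and 2104 in placebo, 2449 and 2412 in E2 and 2241 and 2356 in EE. E2 samples were above both placebo samples by a small margin, and EE samples overlapped with placebo. Its log2 fold change was 0.14 for E2, with a 95% interval of -0.18 to 0.46 (adjusted p = 0.385), and 0.06 for EE, with an interval of -0.26 to 0.38 (adjusted p = 0.71). Scaled on reference genes the EE value was -0.006 and on positive controls -0.27. Against the median gene Itgb1 was higher under both estrogens, by 0.70 for E2 (adjusted p = 0.00509) and 0.74 for EE (adjusted p = 0.00275), and with that scaling it was the 1 member higher in E2. Itga5, a further alpha partner of beta 1 on the panel but not a member, was called higher by limma. It rose by 0.69 for E2 (adjusted p = 0.0461) and 0.67 for EE (adjusted p = 0.0469). Its values were low, 26 and 14 in placebo, 26 and 38 in E2 and 30 and 32 in EE, and E2 was not wholly above placebo.

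RefSeq promoter windows, from 250 bases before to 50 after the annotated gene start in build GRCm38.p6, were at hand for 4 of the 10 genes (Itgb1, Itga4, Itgax and Icam1). The windows of Itgb1 and Itga4 are shown because these genes encode partners in one receptor and read differently under estrogen. Capitals mark GAGGAA, a core of binding sites for the myeloid and B cell transcription factor PU.1, searched on both strands (GAGGAA and TTCCTC). The Itgb1 window is chr8:128685404-128685703 and the Itga4 window chr2:79255176-79255475, both on the plus strand.
Itgb1: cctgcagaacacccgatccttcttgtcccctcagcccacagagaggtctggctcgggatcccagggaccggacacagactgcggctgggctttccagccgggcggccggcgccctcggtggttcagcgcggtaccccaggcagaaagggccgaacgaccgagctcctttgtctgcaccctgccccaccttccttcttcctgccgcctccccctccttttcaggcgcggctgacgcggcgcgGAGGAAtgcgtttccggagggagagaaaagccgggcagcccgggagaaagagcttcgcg
Itga4: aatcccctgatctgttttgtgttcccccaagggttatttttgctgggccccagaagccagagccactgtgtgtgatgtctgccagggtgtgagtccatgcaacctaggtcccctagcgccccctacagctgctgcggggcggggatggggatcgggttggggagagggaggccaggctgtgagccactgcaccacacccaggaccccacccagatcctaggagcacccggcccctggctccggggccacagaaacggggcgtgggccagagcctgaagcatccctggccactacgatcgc
The Itgb1 window held 1 match, beginning 9 bases before the start, and the other 3 windows held none, while 28.3% of all 32851 windows of this length in the table hold GAGGAA or its reverse. The motif TATAAA, on either strand, stood in the window of Icam1 alone, and in 13.6% of all windows. The share of G or C was 67.3% for Itgb1, 64.3% for Itga4, 64.7% for Icam1 and 50% for Itgax, against a median of 52.7% over all windows. A match describes letters and does not show that a factor binds.

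Of the ligands of LFA-1, Icam2 fell under both estrogens, and Icam1 fell under E2 and did not pass the test under EE. Icam2, a ligand that endothelium, platelets and resting lymphocytes carry constitutively, read 937 and 975 in placebo, 542 and 515 in E2 and 395 and 462 in EE. Its groups were separate in the order placebo, E2, EE. Icam2 changed by a log2 value of -0.85 ± 0.15 for E2 (adjusted p = 9.87e-04) and -1.16 ± 0.15 for EE (adjusted p = 1.70e-04). Relative to the median gene it was -0.29 for E2 (adjusted p = 0.0615, past no threshold) and -0.48 for EE (adjusted p = 0.0106).

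Icam1, the inflammation-induced ligand, read 312 and 297 in placebo, 244 and 212 in E2 and 243 and 259 in EE. Placebo was above both estrogen groups, and E2 and EE overlapped. The log2 fold change was -0.42 for E2, with an interval of -0.75 to -0.09 (adjusted p = 0.0274), and -0.28 for EE, with an interval of -0.61 to 0.05 (adjusted p = 0.105). On the median gene Icam1 turned to 0.14 for E2 (adjusted p = 0.265) and to 0.40 for EE, where it passed the test as higher (adjusted p = 0.0166). On positive controls Icam1 passed as lower under EE (-0.61, adjusted p = 0.00804), so that its direction under EE depends on the scaling.

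Pecam1 read 3104 and 3900 in placebo, 1840 and 1516 in E2 and 1496 and 1653 in EE. It had the widest spread among placebo replicates of the tested members, yet all estrogen samples lay far below both, and E2 and EE overlapped. The log2 fold change was -1.06 ± 0.17 for E2 (adjusted p = 8.07e-04) and -1.15 ± 0.17 for EE (adjusted p = 3.67e-04). On the median gene it was -0.50 (adjusted p = 0.0214) and -0.46 (adjusted p = 0.0255), so that its direction and its call held on each of the 4 scalings tried, as they did for Itgal. Of these 4, scaling on reference genes (-1.12 and -1.21) is close to the deposited scale, where those genes are already nearly level, and is hardly a separate check.

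Selplg, which neutrophils, T cells and other leukocytes are known to express, was close to the background on this probe. It read 21 and 22 in placebo, above the background, and 6 and 7 in E2 and 8 and 3 in EE, all below it. With a mean of 11.2 it was not tested, and no fold is given because the estrogen groups have only a bound.

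**Figure D2:**
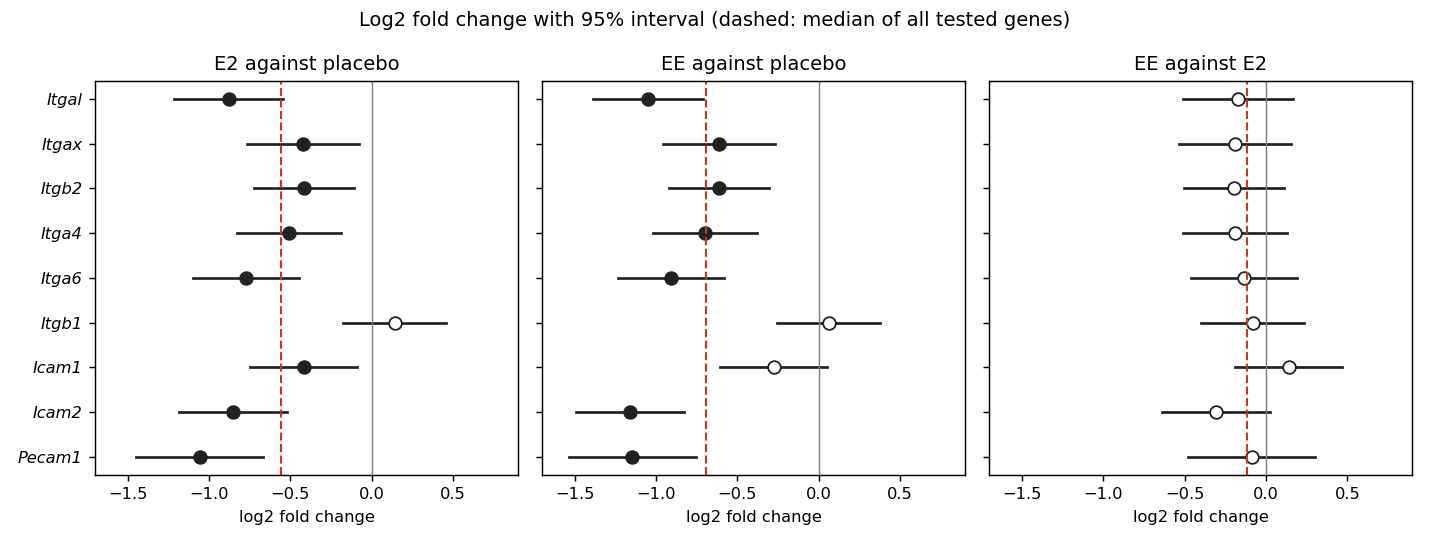
Log2 fold change (x axis) of the 9 tested adhesion genes in E2 against placebo, EE against placebo and EE against E2. Points are limma estimates, lines their 95% intervals, filled points have an adjusted p below 0.05, and the dashed line is the median of all 457 tested genes. Pecam1, Icam2 and Itgal lie left of the dashed line in the comparisons with placebo and Itgb1 lies near 0.

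Samples of E2 lay wholly below those of placebo for 9 of the 10 genes, and those of EE likewise for 9 of 10. Among all tested genes the shares were 67.6% and 70.0%. Both counts of 9 include Selplg, which was not tested and lay below the background in all estrogen samples. The calls of Itgax, Itgb2 and Icam1 in E2 against placebo were lost when the EE samples did not help to estimate the spread. Fitted on those 2 groups alone, their adjusted p was 0.0595, 0.0623 and 0.0613, and 5 of 9 members remained called. Without E2 replicate 2 the adjusted p was 0.128 for both Itgax and Icam1, without E2 replicate 1 it was 0.0621 for Itgb2, without placebo replicate 22 it was 0.0729 for Icam1, and without placebo replicate 26 it was 0.114 for Itgax. In EE against placebo, Itgax lost its call without EE replicate 11 (adjusted p = 0.0622).

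Cell type markers moved with these genes. All 15 T cell markers, all 10 B cell markers and all 6 NK cell markers tested fell under each estrogen, and Ptprc, the CD45 gene that all leukocytes carry, fell by 0.83 under E2 and by 0.95 under EE. Summed T cell markers ran from 12035 to 14622 in E2, from 9786 to 10988 in EE and from 28458 to 33156 in placebo, and B cell markers from 82814 to 96070, from 82333 to 84110 and from 150217 to 168659. NK cell markers summed to 1020 to 1523 in E2, 1045 to 1215 in EE and 3835 to 3948 in placebo. With scaling on the median gene, 13 of the T cell markers, 4 of the B cell and 6 of the NK cell markers still passed as lower in E2, and 15, 4 and 6 in EE, while 1 B cell marker turned positive in E2. Ptprc then stood at -0.27 under both estrogens, a value that kept its call under EE and lost it under E2.

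In the opposite direction, all 8 neutrophil markers rose under E2 and 6 of 8 under EE, with sums of 183298 to 208669 in E2, 81829 to 93595 in EE and 6068 to 9777 in placebo. Markers of erythroid cells, megakaryocytes and platelets rose in 7 of 8 cases under E2 and 8 of 8 under EE, with sums of 16023 to 16260, 20435 to 21322 and 2503 to 3239. The first of these lists holds Itgam and the second Icam4 and Itga2b, while the T cell list holds Cd2, also counted below among other adhesion genes. Of 8 monocyte and macrophage markers, 1 rose and 2 fell under E2, and 5 rose and 2 fell under EE, with sums of 7325 to 7392, 10723 to 12153 and 6093 to 7445. With scaling on positive controls, 5 neutrophil markers rose and 1 fell under EE, and on the median gene 6 and 5 monocyte and macrophage markers rose and 0 and 1 fell under E2 and EE. Positive controls gave 2 monocyte and macrophage markers higher and 3 lower under EE. No marker of these lists was at or below the background in all samples. Of the endothelial markers, Cdh5, Sele and Vcam1 were measured, Sele was at or below the background in every sample, and Vcam1, the 1 tested, was at -0.03 under E2 and rose by 0.67 under EE, with sums of 2218 to 2353, 3471 to 3937 and 2277 to 2448. These sums are nearly all Vcam1, which read 2337 and 2203 in E2, 3459 and 3918 in EE and 2405 and 2239 in placebo, so they describe 1 gene. The EE call of Vcam1 was lost on positive controls (0.34), and on the median gene Vcam1 was also called higher under E2 (0.53). The part of these cells in the levels of the adhesion genes was not tested, and in bulk RNA fewer cells of a type and less RNA per cell cannot be told apart.

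Set against Ptprc within each sample, which needs no scaling between samples, the adhesion genes had unlike profiles. This division was chosen after the values were seen and is given without a test. Itgal over Ptprc was 0.308 and 0.326 in placebo, 0.311 and 0.303 in E2 and 0.297 and 0.296 in EE. These ratios overlapped between placebo and E2 and differed little. Pecam1 over Ptprc was 0.314 and 0.385 in placebo, 0.306 and 0.288 in E2 and 0.297 and 0.311 in EE, with all estrogen samples just under the lower placebo sample. Itgb2 over Ptprc was 0.283 and 0.270 in placebo and higher in each estrogen sample, at 0.337 and 0.403 in E2 and 0.357 and 0.342 in EE. The ratios of Itgax, Itga4 and Icam1 were also higher in each estrogen sample. Those of Itga6 overlapped with placebo, and those of Icam2 overlapped under E2 and were lower under EE. Ptprc itself changed by -0.83 and -0.95, beside panel medians of -0.56 and -0.695. The share of all genes that rose against Ptprc was not computed. Itgb1 over Ptprc was 0.233 and 0.207 in placebo, 0.408 and 0.459 in E2 and 0.445 and 0.444 in EE, the clearest separation of the genes named in this paragraph.

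The ratio of an alpha chain to its beta chain within a sample also does not depend on scaling, and it was tested with limma as a log2 ratio for every gene. Itgal over Itgb2 was 1.09 and 1.21 in placebo, 0.923 and 0.751 in E2 and 0.831 and 0.865 in EE. Placebo samples were above all estrogen samples. The ratio changed by a log2 value of -0.46 ± 0.18 in E2 (adjusted p = 0.0484) and -0.44 ± 0.18 in EE, which missed the threshold (adjusted p = 0.0614); 23.5% of all genes were lower relative to Itgb2 in E2. The E2 call was lost without E2 replicate 2 (-0.31, adjusted p = 0.209), without either EE replicate (0.101 each), without placebo replicate 22 (0.0508) and without placebo replicate 26 (0.207), and the EE value passed without either E2 replicate (0.0406 each).

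Itgax over Itgb2 was 0.120 and 0.138 in placebo, 0.137 and 0.120 in E2 and 0.121 and 0.137 in EE, so that the 3 groups covered the same range. The log2 change was below 0.01 in size in both comparisons, with 95% intervals of -0.39 to 0.38 for E2 and -0.39 to 0.39 for EE. Itgam is the third alpha chain of this family on the panel and marks neutrophils and monocytes. Its ratio to Itgb2 was 0.0986 and 0.0834 in placebo, 0.385 and 0.398 in E2 and 0.242 and 0.279 in EE. The ratio rose by 2.11 ± 0.18 in E2 (adjusted p = 3.39e-08) and by 1.52 ± 0.18 in EE (adjusted p = 2.31e-06), where 21.7% and 27.0% of all genes were higher relative to Itgb2.

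Relative to Itgb1, its alpha partners Itga4 and Itga6 fell. The ratio of Itga5, which was called higher on its own, is not given here. Itga4 over Itgb1 was 0.892 and 0.876 in placebo, 0.572 and 0.555 in E2 and 0.531 and 0.516 in EE, with close replicates and no overlap between groups. The log2 ratio changed by -0.65 ± 0.16 in E2 (adjusted p = 0.0028) and -0.76 ± 0.16 in EE (adjusted p = 9.22e-04). Itga6 over Itgb1 was 0.283 and 0.344 in placebo, 0.163 and 0.169 in E2 and 0.156 and 0.163 in EE. That ratio changed by -0.92 ± 0.17 in E2 (adjusted p = 4.91e-04) and -0.97 ± 0.17 in EE (adjusted p = 2.75e-04). These falls are not particular to the alpha chains, since 66.2% of all genes in E2 and 66.0% in EE were lower relative to Itgb1.

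**Figure D3:**
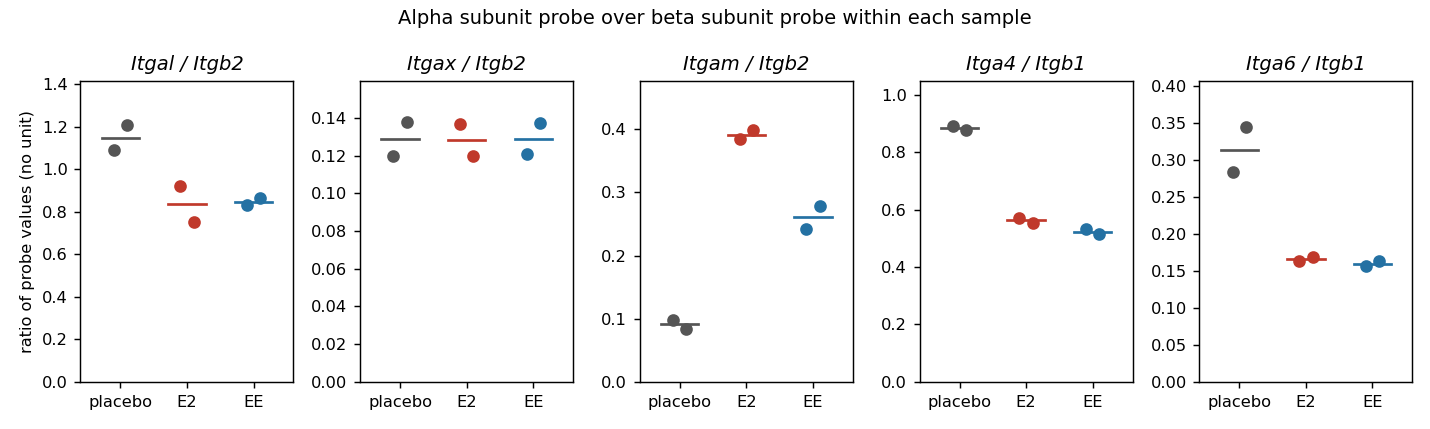
Ratio of an alpha subunit probe to its beta subunit probe within each sample (y axis from 0, no unit). Points are samples and bars group means. Itgam over Itgb2 is highest in E2, Itgax over Itgb2 covers one range in all groups, and Itga4 and Itga6 over Itgb1 are lower in both estrogen groups.

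The direct comparison of EE with E2 sets the synthetic estrogen, with its ethynyl group, against the natural one at the same age and duration; since doses are not stated, whether they match is unknown. By limma 0 of the 9 tested adhesion genes differed, while 6.78% of the 457 genes did. At an unadjusted p under 0.05 the counts were 0 of 9 and 105 of 457. Itgb2 differed by -0.20 (interval -0.50 to 0.11), Itgal by -0.17 (-0.51 to 0.17) and Itgax by -0.19 (-0.53 to 0.15). Icam2 had the lowest value, -0.31 (-0.64 to 0.03), and Icam1 the only positive one, 0.14 (-0.19 to 0.47). Itga4 stood at -0.19 (-0.51 to 0.13), Itga6 at -0.13 (-0.46 to 0.19), Itgb1 at -0.08 (-0.40 to 0.24) and Pecam1 at -0.09 (-0.48 to 0.30). EE samples lay wholly below E2 samples for 7 of the 10 genes, as they did for 40.7% of all tested genes. The intervals leave room for a difference in either direction, except that each excludes a doubling (a log2 value of 1) or its inverse. Of the subunit ratios, Itgam over Itgb2 alone was lower in EE than in E2, by -0.59 ± 0.18 (adjusted p = 0.0443), beside 3.51% of all genes, and it lost this call without either E2 replicate (0.119 and 0.214) or either EE replicate (0.479 and 0.139).

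Other adhesion genes of the panel covered a wider range. Of a list of 34, 18 were measured and 16 tested. Under E2, 7 rose, 3 fell and 6 did not pass, and under EE 7 rose, 5 fell and 4 did not pass, with medians of 0.17 and 0.055. On the median gene 10 rose and 1 fell under E2, and 9 rose and 3 fell under EE. With reference genes 6 rose and 6 fell under EE, and with positive controls 5 rose and 7 fell. Icam4, an adhesion molecule of red cell precursors, read 97 and 52 in placebo, 585 and 556 in E2 and 891 and 745 in EE. It was many times higher in every estrogen sample, with log2 fold changes of 2.99 ± 0.26 (adjusted p = 3.44e-05) and 3.50 ± 0.26 (adjusted p = 1.08e-05). Itgam read 275 and 227 in placebo, 778 and 843 in E2 and 435 and 505 in EE. Its groups were separate, with E2 highest, and it rose by 1.69 ± 0.16 (adjusted p = 6.15e-05) and 0.90 ± 0.16 (adjusted p = 8.23e-04). Between EE and E2, Itgam differed by -0.79 ± 0.16 (adjusted p = 0.0195), a call lost without either E2 replicate (0.11 and 0.14), without EE replicate 11 (0.0973), without the filter on low values (0.105) and on the median gene (0.0708).

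Itga2b, the platelet integrin alpha chain, read 46 and 48 in placebo, 94 and 66 in E2 and 385 and 210 in EE. It rose by 2.57 ± 0.27 under EE (adjusted p = 7.96e-05) and by 0.73 ± 0.27 under E2 (adjusted p = 0.037), a call lost without either E2 or either placebo replicate (adjusted p from 0.051 to 0.248) and without the filter on low values (0.101). Itga2b was also higher in EE than in E2, by 1.84 ± 0.27 (adjusted p = 0.0083), which was lost without either E2 replicate (0.0525 and 0.128) and without that filter (0.0922). Cd36, a scavenger receptor of macrophages and platelets, rose by 1.04 and 1.38. Cd34, a sialomucin of blood progenitors and endothelium, read 21 and 20 in placebo, 47 and 45 in E2 and 46 and 35 in EE. It lay above placebo in all estrogen samples and rose by 1.13 ± 0.16 (adjusted p = 5.29e-04) and 0.94 ± 0.16 (adjusted p = 7.66e-04). Among genes that fell were the T cell adhesion molecules Cd2 (-1.03 and -1.49) and Cd6 (-1.10 and -1.57) and the leukocyte sialomucin Spn (-0.51 and -0.99). On the median gene Cd6 lost its E2 call (adjusted p = 0.0544) and Spn turned to 0.05 under E2. Cd44, the hyaluronan receptor, stood at 0.06 under E2 and 0.004 under EE (adjusted p = 0.769 and 0.984), and turned to between -0.32 and -0.004 on reference genes and positive controls. Relative to the median gene it was higher, by 0.62 and 0.69 (adjusted p = 0.0138 and 0.00844).

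**Figure D4:**
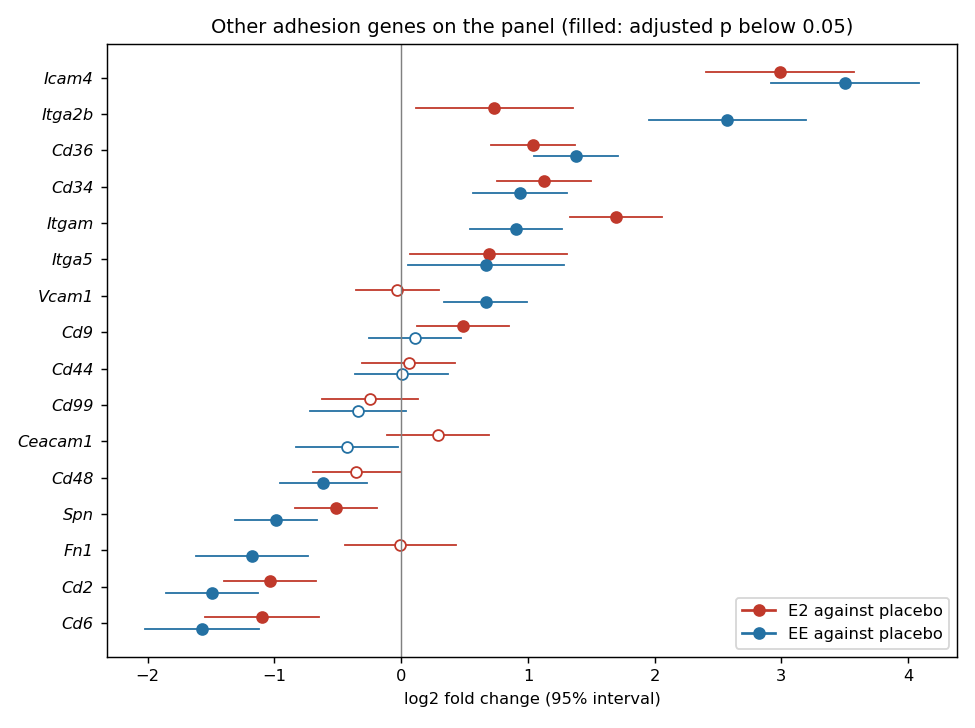
Log2 fold change with 95% interval (x axis) of the 16 other adhesion genes tested, for E2 and EE against placebo, sorted by the EE value. Filled points have an adjusted p below 0.05. Icam4 is highest at 2.99 and 3.50 and Cd6 lowest at -1.10 and -1.57.

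In the RefSeq gene order of GRCm38.p6, Itgam and Itgax are adjacent protein-coding genes on chromosome 7, yet on the deposited scale Itgam rose and Itgax fell under each estrogen, while against the median gene Itgax stood at 0.14 and 0.07. Icam1 and Icam4 are adjacent on chromosome 9, where Icam4 rose under both, and Icam1 had negative values on the deposited scale and positive ones (0.14 and 0.40) against the median gene. Icam2 and Pecam1, which lie on chromosome 11 with 2 protein-coding genes between them, both fell on the deposited scale. So did 59.5% (E2) and 63.9% (EE) of all tested genes. Against the median gene Icam2 stood at -0.29, not past the threshold, and -0.48, and Pecam1 at -0.50 and -0.46.

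For each tested member, the gene outside the list with the most similar profile was found by the root mean square difference of log2 values centred over the 6 samples. For Itgal it was Ikzf1, the lymphoid transcription factor Ikaros, at 0.025. Ikzf1 read 1761 and 1825 in placebo, 1034 and 886 in E2 and 824 and 860 in EE. Its nearly constant proportion to Itgal follows from its choice as the most similar gene. Icam1 was closest to Ctss, the lysosomal protease cathepsin S (0.038), and Pecam1 to the interleukin-4 receptor gene Il4ra (0.041). Icam2 was closest to Sigirr (0.055), Itgax to Cd1d1 (0.056), Itga4 to Ly86 (0.056), Itga6 to Atm (0.056) and Itgb2 to Atg16l1 (0.071). The closest row to Itgb1 could not be named (0.047). These likenesses rest on 6 samples that share 3 treatments and describe profiles only.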

How the data were processed

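Total RNA of splenocytes was counted on a NanoString nCounter mouse immunology panel, in which barcoded probes are counted without amplification, per the labels. The deposited values are whole numbers, treated here as a score, that is, as barcode counts scaled per sample and rounded, because in placebo replicate 26 all 356 gene rows up to a value of 600 were rounded multiples of 1.238, although 80.8% of whole numbers are such multiples, and the geometric mean of the reference genes, though not each gene, was nearly level in all samples. No such factor was found in the other samples within the limited range searched, and the sources used here name no scaling or background step. A factor outside that range could not have been found. The plan had a count model for raw counts and limma on log2(value + 1) otherwise, and the latter was used. Negative controls limit precision near 10 to 14 units; raw depth is unknown.

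Of 575 rows, 561 were genes and 14 spiked-in controls (6 positive, 8 negative). RefSeq identifiers without versions named 549 gene rows through the gene table of GRCm38.p6. Genes with a mean of at least 20 were tested (457), in 1 limma model of 3 group means over all 6 samples (limma 3.58.1, R 4.3.3; 3 residual degrees of freedom), two-sided, with Benjamini-Hochberg adjustment over all 457 genes and a threshold of 0.05. Ratios used limma on log2((value + 1) / (beta subunit value + 1)). Limma drew each gene's variance towards a value shared by all tested genes, which raised the degrees of freedom to 8.93. They were 17.69 and 12.25 for ratios to Itgb2 and Itgb1, and 230.27 with scaling on positive controls. Small p-values thus lean on the panel's shared spread, not on 2 samples per group alone. An exact permutation test of 2 against 2 samples cannot go below p = 0.333. On simulated data for E2 against placebo with 457 genes, 88 of 100 genes changed by a log2 value of 1 and 54 of 100 changed by 0.5 were called, and 4 of 257 unchanged ones. The simulated rises and falls were balanced, with no shift in scale between samples. In the real data most genes were lower and the calls depended on scaling, so these shares may not carry over.

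Members and lists were chosen with earlier results of these data known. Named were all members, the 8 other adhesion genes with the lowest p against placebo, Itgam, Icam4 and Cd44, and each member's most similar gene, by log2(value + 1) in place of the planned scaled CPM. Itga5 was named in addition, after its values were seen. 1 gene of the list of other adhesion genes is not reported here. Alternatives were other scalings, pseudocounts, filters, a variance trend, fits on 2 groups and fits without 1 sample; where a group then had 1 sample, it was assumed to vary like the other groups.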

Additional observations from a re-analysis of the deposited data

How the results depend on the processing

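Scaling moved the results most. The median log2 fold change of all tested genes against placebo was 0.003 (E2) and -0.011 (EE) on the median gene, -0.62 and -0.76 on reference genes and -0.652 and -1.023 on positive controls. On the median gene, 213 panel genes (125 higher, 88 lower) and 3 adhesion genes (1 higher, 2 lower) were called in E2 against placebo, in place of 329 and 8, and in EE against placebo 133 were higher and 109 lower. Signs then turned in E2 against placebo for Itgax (0.140), Itga4 (0.054), Itgb2 (0.146), Icam1 (0.143) and Spn (0.050), in EE against placebo for Itgax (0.070), Itgb2 (0.070) and Icam1 (0.404), and in EE against E2 for Itgb1 (0.040), Pecam1 (0.034) and Cd44 (0.067). On reference genes Cd44 turned to -0.004 (E2) and -0.061 (EE) and Itgb1 to -0.006 (EE). On positive controls Cd44 turned to -0.036 (E2) and -0.324 (EE), Itgb1 to -0.269 (EE) and Icam1 to -0.094 (EE against E2). With only the groups compared, 5 adhesion genes were called in E2 against placebo. A single left-out sample gave 5 to 7 there, 255 to 323 panel genes, and 6 to 7 and 317 to 357 in EE against placebo. It turned values near 0: Cd44 ran from -0.099 to 0.215 (E2), from -0.153 to 0.161 (EE) and from -0.150 to 0.043 (EE against E2), Itgb1 from -0.008 to 0.127 (EE), Pecam1 from -0.226 to 0.053 (EE against E2) and Cd34 from -0.384 to 0.000 (EE against E2).

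The panel count of EE against E2 was 31 (105 at an unadjusted p under 0.05) and the least stable: 74 with a variance trend, 13 on the median gene (12 higher, 1 lower), 98 on positive controls (8 higher, 90 lower) and 0 without a filter on low values (92 unadjusted). It was 0 (93 unadjusted) without E2 replicate 2, 6 without E2 replicate 1 and up to 45 without other samples; 0 adhesion genes were called by limma under any alternative run. Without the filter on low values Itgax lost its E2 call (adjusted p = 0.057). Subunit ratios called ranged from 3 to 4 of 5 (E2 against placebo and EE against placebo) and 0 to 1 (EE against E2) over left-out samples. Ratios near 0 changed sign: Itgax over Itgb2 to 0.006 with a pseudocount of 10 (E2), and with a sample left out it ran from -0.107 to 0.097 (E2), from -0.100 to 0.103 (EE) and from -0.089 to 0.101 (EE against E2), and Itgal over Itgb2 from -0.122 to 0.175 (EE against E2). The cause was not tested. The planned edgeR and DESeq2 fits, limma on TMM-scaled values and the difference of TMM fold changes were not run, because the values were treated as scaled; scaling on reference genes, positive controls or the median gene, the pseudocount of 10 on these values and the variance trend were chosen after seeing the data. No paired analysis was possible because the groups share no replicate numbers.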
